A study of Mus musculus with 6 samples.

Results

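Interferon gamma is the single type II interferon, a cytokine encoded by Ifng, and 8 genes of its locus and its signalling route are described here in mouse 4-cell embryos whose transcription had been blocked for a time after fertilization. The 8 genes were taken by symbol from the 55335 genes of each library. They are Ifng itself, Gm9029 and Gm9030, which are pseudogenes on chromosome 10 on the 5′ side of Ifng, the receptor genes Ifngr1 and Ifngr2, the kinase genes Jak1 and Jak2, and Irf1, a transcription factor gene that the pathway switches on. They were chosen by their place in the locus or the pathway, with the FPKM difference between treated and control embryos in view. Their values in that contrast are therefore a description and carry no test, and tests are given for the other genes of the pathway and of the locus.

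The study compared 4-cell embryos in 2 groups of 3 libraries, sequenced as cDNA that had been amplified by the Smart-Seq2 method from an oligo-dT primer. DRB embryos had been placed at 6 h after fertilization in KSOM, an embryo culture medium, with 20 µM DRB, a nucleoside analogue that stops elongation by RNA polymerase II through inhibition of the kinase CDK9. They stayed there for 20 h, were washed, and grew for a further 26 h in KSOM without the inhibitor. Con embryos are the control group, and the labels do not say whether they received a vehicle. The hour at which Con embryos were collected is not stated here, so the comparison is by cell stage. Neither the mouse strain nor the number of embryos in a library is given in the sources used here, and nothing says that the replicates came from separate cultures, so a p-value here reflects only how these libraries scatter, and that scatter may be technical. The comparison addresses how the 4-cell transcriptome differs after an early block of transcription that has since been lifted.

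Interferon gamma is made mainly by activated T cells and natural killer (NK) cells. It binds a receptor built from the ligand-binding chain IFNGR1 and the signalling chain IFNGR2, which hold the kinases JAK1 and JAK2. Signalling through these kinases leads to binding of promoters at gamma-activated sites and turns on genes such as Irf1, the guanylate-binding proteins and the antigen-presentation genes. Gm9029 and Gm9030 belong to another family, since both are processed copies of Cdc5l, a gene for a component of the spliceosome.

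All values are FPKM, fragments scaled by transcript length and by the total of the library. An estimate of depth from low values gave 21600000 to 24400000 fragments a library, with overlapping ranges in Con and DRB. Pairs of libraries correlated with a Pearson's r, on log2 values, of 0.935 to 0.944 for Con pairs, 0.909 to 0.937 for DRB pairs and 0.869 to 0.915 for mixed pairs. Genes of the mitochondrial genome took 12.2% to 20.0% of the summed FPKM in Con and 23.9% to 26.4% in DRB. All 16 markers of the oocyte and cleavage embryo were tested, with 1 called higher, the zinc-finger gene Zfp352 (limma, log2 difference 3.18 ± 0.43 (SE), adjusted p = 0.00453), 0 called lower and a median of -0.01. In the same limma fit 3 of the 16 were at an unadjusted p under 0.05, where 18.1% of all genes tested were. In the fit of all genes, limma on log2(FPKM + 1), 295 of 11893 genes tested passed a Benjamini-Hochberg adjusted p of 0.05, 182 of them higher and 113 lower in DRB.

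Ifng (ENSMUSG00000055170.4) is a protein-coding gene on the plus strand at chr10:118441046-118445892 of mm10. The 250 bases before its RefSeq start, at chr10:118440796-118441045 of GRCm38.p6 (plus strand), are shown because they hold both a gamma-activated-site match and a TATA box. The 250 bases before the start of Irf1, at chr11:53769764-53770013 on the plus strand, are shown beside them because Irf1 is the classic gamma-activated-site gene. Capitals mark matches to TTCNNNGAA, the core of a gamma-activated site, or to TATAAA, both searched on both strands.
Ifng promoter: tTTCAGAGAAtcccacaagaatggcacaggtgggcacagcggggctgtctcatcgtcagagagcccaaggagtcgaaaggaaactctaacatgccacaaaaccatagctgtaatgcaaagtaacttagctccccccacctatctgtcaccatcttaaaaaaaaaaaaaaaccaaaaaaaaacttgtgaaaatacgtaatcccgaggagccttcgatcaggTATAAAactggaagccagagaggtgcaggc
Irf1 promoter: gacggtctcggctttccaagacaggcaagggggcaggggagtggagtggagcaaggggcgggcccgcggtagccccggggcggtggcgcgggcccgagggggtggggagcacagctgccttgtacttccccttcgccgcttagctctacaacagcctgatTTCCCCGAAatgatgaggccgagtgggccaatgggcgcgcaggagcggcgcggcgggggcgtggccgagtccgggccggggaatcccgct

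The Ifng window has TTCNNNGAA at position -249 and TATAAA at -30 from the start, and the Irf1 window has TTCNNNGAA at -90. Of 32851 RefSeq promoters of the same length, 7.02% hold TTCNNNGAA and 12.4% hold TATAAA. Another motif, GAAA followed by any 2 bases and GAAA again, the core of an interferon-stimulated response element, was searched the same way and is in 2.98% of all promoters and in none of the 7 promoter entries of the 6 members that have one. The windows of Ifngr1, Ifngr2, Jak1 and Jak2 hold none of the 3 motifs, which do not overlap each other in the sequences shown. A further RefSeq entry of Irf1, at chr11:53770223-53770472, holds none of the 3 either. A match describes the letters of the window and is not a measured binding site.

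Ifng was listed at 0 in all 3 Con libraries. In the DRB libraries it stood at 6.73, 16.81 and 8.09 FPKM in replicates 1, 2 and 3, a mean of 10.5 ± 5.47 (SD, n = 3). Every DRB library was thus above every Con library. By the estimated depth and a transcript of 1208 bases, the DRB values correspond to about 161, 393 and 209 fragments, and 3 fragments, the upper limit that a count of 0 allows, would be 0.116 to 0.133 FPKM. This limit covers counting error only, since PCR copies are not independent molecules. The DRB values placed Ifng at the 45.8th, 67.0th and 55.1st percentile of the genes tested in the same library, so it was read at a middling level. No fold can be given against a group at 0, and the log2 difference of 3.43 ± 0.44 (SE) on the log2(FPKM + 1) scale depends on the added 1. In these bulk libraries, more cells with the transcript and more transcript per cell cannot be told apart.

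The Ifng transcript can be told from other genes by its reads. Of its 1059 windows of 150 bases, the length of a read, 1020 (96.3%) occur in no other annotated transcript gene, and the rest are shared with Gm49751, an annotated gene that overlaps it on the same strand. Gm49751 was listed at 0 in Con and stood at 0.34, 0.03 and 0 FPKM in DRB. The antisense RNA gene Ifngas1, which lies 56.1 kb past Ifng and is known from T cells, was listed at 0 in all 6 libraries.

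**Figure D1:**
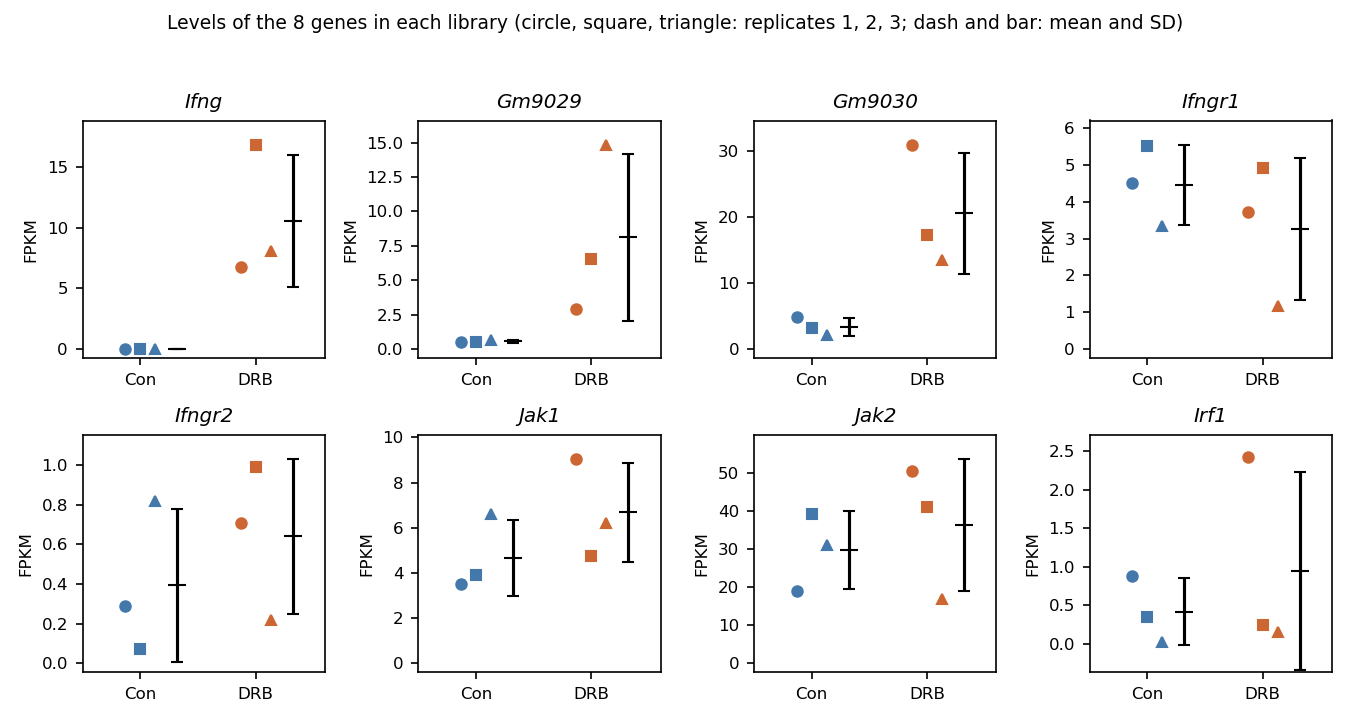
FPKM of the 8 genes in each library. Each panel has its own linear axis, circles, squares and triangles are replicates 1, 2 and 3 of Con and DRB, and the dash and bar beside them are the mean and SD of the group (n = 3). In the panels of Ifng, Gm9029 and Gm9030 every DRB point lies above every Con point, and in those of Ifngr1, Ifngr2, Jak1, Jak2 and Irf1 the groups overlap.

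Gm9029 (ENSMUSG00000112135.1, chr10:118243800-118246209, minus strand) and Gm9030 (ENSMUSG00000112614.1, chr10:118253259-118255668, plus strand) end 195 kb and 185 kb before Ifng starts. Each is annotated as a processed pseudogene of 2410 bases, and the transcripts differ from each other by 1 base. The substitution is C785A, counted from 1 at the transcript's 5′ end, with the base of Gm9029 first and that of Gm9030 last. The 61 bases around it are printed from the GENCODE M21 transcripts (GRCm38), in the direction of the transcript, because reads that cover the base in capitals are the ones that can tell these copies apart. Gm9029 is given from chr10:118245395-118245455 on the minus strand and Gm9030 from chr10:118254013-118254073 on the plus strand.
Gm9029: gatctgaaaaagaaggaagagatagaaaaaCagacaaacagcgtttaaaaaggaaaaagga
Gm9030: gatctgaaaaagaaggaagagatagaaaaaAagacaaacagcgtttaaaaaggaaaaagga

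Gm9030 stood at 4.85, 3.22 and 2.11 FPKM in Con and at 30.92, 17.35 and 13.44 in DRB. The groups did not overlap, and the means were 3.39 ± 1.38 and 20.57 ± 9.17 FPKM (SD, n = 3), a ratio of 6.06 and a log2 difference of 2.26 ± 0.44 (SE). Gm9029 was read at 0.48, 0.54 and 0.66 FPKM in Con and at 2.94, 6.56 and 14.82 in DRB. Its groups did not overlap either, with means of 0.56 ± 0.0917 and 8.11 ± 6.09 FPKM, a ratio of 14.5 and a log2 difference of 2.32 ± 0.52. Its DRB libraries spanned a wide range, and the DRB library that was highest for Gm9030, replicate 1, was the lowest of the 3 for Gm9029.

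Of the 2261 windows of 150 bases in each, 109 in Gm9029 (4.82%) and 150 in Gm9030 (6.63%) occur in no other annotated transcript gene. The division of fragments between these copies is therefore uncertain, and their summed level does not depend on that division. Windows that they share with other genes as well were not counted apart, so fragments of other genes may still enter the sum. The sum was 5.33, 3.76 and 2.77 FPKM in Con and 33.86, 23.91 and 28.26 in DRB, or 3.95 ± 1.29 against 28.7 ± 4.99 (SD, n = 3), a ratio of 7.25. Gm9029 took 9.01%, 14.4% and 23.8% of the sum in Con and 8.68%, 27.4% and 52.4% in DRB. The SD of the sum in DRB was below that of either copy alone.

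Gm9029 and Gm9030 are part of a row of 10 Cdc5l copies that spans 116 kb and ends 86.9 kb before Ifng. A copy was counted where at least 90% of Gm9030 aligned to it. Of the 10, 8 are annotated as protein coding and 2, the members, as processed pseudogenes. At position 785 9 of the copies have C, and Gm9030 alone has A. None of the 2260 windows of any of the other 8 copies is its own, which bears on every value given for them.

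The copies did not all stand at the same level. Gm32717 was read at 0.33, 0.19 and 0.16 FPKM in Con and at 0.34, 0.33 and 0.49 in DRB, and Gm32802, whose sequence has 0 mismatches to it, at 0.49, 0 and 0.27 in Con and 1.21, 1.03 and 1.54 in DRB. Gm9040 and Gm9044, identical in sequence, were listed with identical values of 1.00, 0.43 and 0.21 FPKM in Con and 5.54, 8.17 and 1.39 in DRB (limma, adjusted p = 0.104, and 0.0311 without DRB replicate 3). Gm9045 and Gm9049, also identical in sequence, both had 0, 1.36 and 0.17 FPKM in Con and 9.96, 2.44 and 1.25 in DRB (limma, adjusted p = 0.176). Gm9040 with Gm9044, and Gm9045 with Gm9049, thus supplied the same numbers to the comparison, and each of these pairs counts as 1 measurement. Gm9046 and Gm9048 differ by 1 base, and the DRB library at 19.45 FPKM for Gm9046 was at 0 for Gm9048, while DRB replicate 3, at 0 for Gm9046, was at 3.90 for Gm9048.

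Summed over the 10 copies, the level was 9.02, 7.61 and 3.96 FPKM in Con and 85.86, 56.24 and 39.47 in DRB. The groups did not overlap, at 6.86 ± 2.61 and 60.5 ± 23.5 FPKM (SD, n = 3), a ratio of 8.82. The mean of each of the 10 copies was higher in DRB, where 5234 of 11893 genes tested had a positive log2 difference. These copies share reads and are not 10 separate measurements. Taken singly, Gm32717, Gm9045, Gm9046, Gm9048 and Gm9049 had overlapping groups. The sum contains the members and so is no independent measure. The parent gene Cdc5l, on chromosome 17 at chr17:45391884-45433737 and 97.9% identical to Gm9030, has 88.4% of its own windows to itself. Cdc5l stood at 102.28, 74.32 and 91.85 FPKM in Con and at 118.94, 70.96 and 88.09 in DRB, so its groups overlapped.

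**Figure D2:**
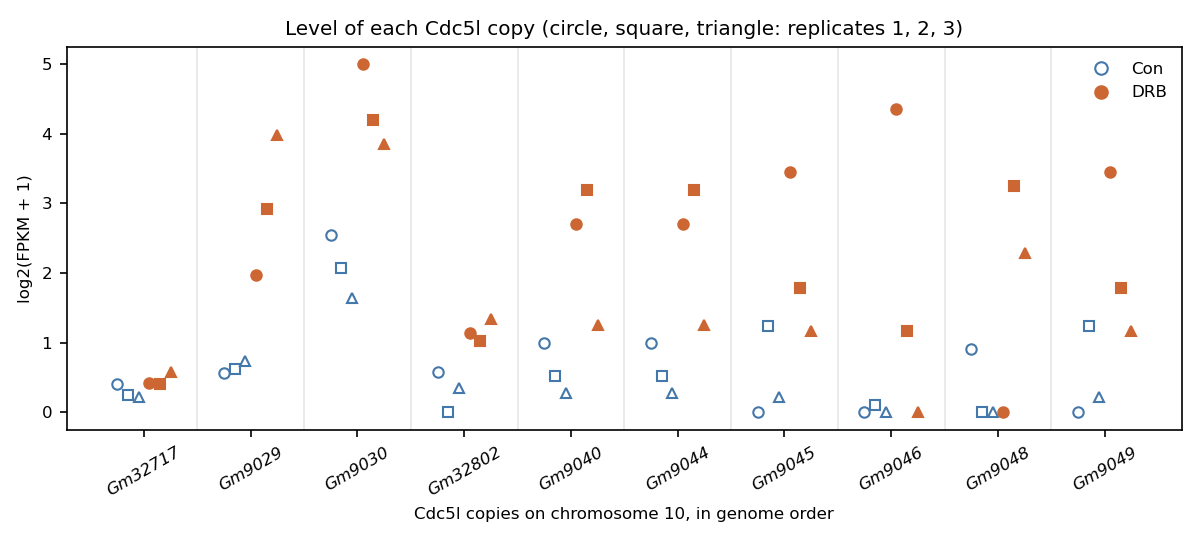
Level of the 10 Cdc5l copies on chromosome 10 in genome order, as log2(FPKM + 1). Open symbols are Con and filled symbols DRB libraries, with circles, squares and triangles for replicates 1, 2 and 3; the pairs Gm9040 with Gm9044 and Gm9045 with Gm9049 show the same points, and Gm9046 and Gm9048 each have a DRB library at 0.

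Of the 8 members, 6 had at least 1 FPKM in at least 3 libraries and entered the fit, and Ifng and Gm9029 entered it only through the DRB libraries, so that they had to differ. The same fit called 3 of the 6, Ifng, Gm9029 and Gm9030, all higher in DRB, where 2.48% of all genes tested were called, 1.53% higher and 0.95% lower. In 3 of the 8 members every DRB library was above every Con library and in 0 every one was below, where 9.85% and 13.9% of the genes tested did so and 23.8% did either. Since the members were chosen with these differences in view, nothing is read from these counts.

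The receptor genes were read at low levels in both groups. Ifngr1 (chr10:19591949-19610229), the ligand-binding chain, stood at 4.51, 5.51 and 3.33 FPKM in Con and at 3.71, 4.91 and 1.16 in DRB. DRB replicate 3 was the lowest and the groups overlapped, with means of 4.45 ± 1.09 and 3.26 ± 1.92 FPKM and a log2 difference of -0.46 ± 0.48 (SE). Ifngr2 (chr16:91547072-91565623), the signalling chain, had 0.29, 0.07 and 0.82 FPKM in Con and 0.71, 0.99 and 0.22 in DRB. It reached 1 FPKM in none of the 6 libraries and was not tested.

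Both kinase genes were present in every library. Jak1 (chr4:101152367-101265282, minus strand) was read at 3.49, 3.91 and 6.59 FPKM in Con and at 9.03, 4.76 and 6.23 in DRB, with overlapping groups and a log2 difference of 0.44 ± 0.42 (SE). Jak2 (chr19:29251828-29313080) had 18.94, 39.13 and 31.0 FPKM in Con and 50.57, 41.11 and 16.98 in DRB. Its highest and its lowest library were both DRB libraries, the log2 difference was 0.20 ± 0.44, and its sign turned without Con replicate 1 and without DRB replicate 1. Jak2 had the highest mean FPKM of the 8 members in both groups, at 29.7 ± 10.2 in Con and 36.2 ± 17.3 in DRB.

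Irf1 (chr11:53770014-53778374), the target gene among the members, stood at 0.88, 0.35 and 0.02 FPKM in Con and at 2.42, 0.25 and 0.16 in DRB. DRB replicate 1 alone was above 1 FPKM, the groups overlapped, and the gene was not tested. In Con the order of the mean levels was Jak2, Jak1, Ifngr1, Gm9030, Gm9029, Irf1, Ifngr2 and Ifng. Jak1, Ifngr1 and Gm9030 had overlapping values in Con, and so did Gm9029, Irf1 and Ifngr2. In DRB it was Jak2, Gm9030, Ifng, Gm9029, Jak1, Ifngr1, Irf1 and Ifngr2, and each neighbouring pair in that order had overlapping values.

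The genes that act with the members in the pathway showed no call. Beside the members, 116 genes were listed as signal transducers, inhibitors, other Irf factors and targets of interferons. Of these, 50 were tested and limma called 0, with 4 at an unadjusted p under 0.05, where 18.1% of all genes tested were at that level. Their log2 differences were positive in 22 and negative in 28, with a median of -0.07 beside -0.09 over all genes tested. In 5 of the 50 every DRB library was above every Con library and in 6 every one was below, close to the 9.85% and 13.9% of all genes tested.

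Among the JAK-STAT transducers 7 of 11 were tested and 0 called, with 0 at an unadjusted p under 0.05 and a median log2 difference of -0.35. Stat2, a transducer of the response to type I interferons, was at 7.62, 5.46 and 8.06 FPKM in Con and at 8.01, 8.40 and 6.67 in DRB (limma, adjusted p = 0.905). Prkcd, a protein kinase C gene, had 34.2 ± 12.4 FPKM in Con and 24.1 ± 4.46 in DRB (limma, adjusted p = 0.535).

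Of 17 inhibitors 13 were tested and 0 called, with 1 at an unadjusted p under 0.05 and a median log2 difference of 0.02. Ptpn2, a phosphatase that acts on JAK1, was abundant, at 423 ± 40.6 FPKM in Con and 430.2 ± 39.3 in DRB (limma, adjusted p = 0.972). Ptpn11, the phosphatase SHP2, was at 7.81, 22.98 and 12.29 FPKM in Con and 79.28, 34.2 and 38.93 in DRB. Its groups did not overlap, and the log2 difference of 1.78 ± 0.44 (SE) missed the threshold (limma, adjusted p = 0.0631), which it passed at a minimum of 5 FPKM (adjusted p = 0.0424). Socs1, an inhibitor that interferon gamma itself induces, was at most 0.55 FPKM in any library. In the Irf family beside Irf1, 2 of 8 genes were tested and 0 called, with 0 at an unadjusted p under 0.05. Irf3, a transcription factor activated downstream of nucleic acid sensors, had 2.55 ± 1.21 FPKM in Con and 6.03 ± 2.28 in DRB (limma, adjusted p = 0.286), and Irf9, a partner of STAT2, had 4.23 ± 1.68 and 2.05 ± 1.19 (limma, adjusted p = 0.390).

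The targets of interferon gamma numbered 55, of which 21 were tested and 0 called, with 2 at an unadjusted p under 0.05 and a median log2 difference of -0.08. These 2 were Ifi35, at 42.7 ± 33.6 FPKM in Con and 10.1 ± 2.39 in DRB (limma, adjusted p = 0.0954), and Psme2, at 37.6 ± 5.14 and 21.2 ± 2.80 (limma, adjusted p = 0.193). In both every DRB library was below every Con library, and in 1 other, Dtx3l, every one was above. Of all genes tested 9.85% were above and 13.9% below. B2m, the light chain of MHC class I, was at 85.15, 144.32 and 85.86 FPKM in Con and at 59.82, 134.76 and 131.13 in DRB, and its groups overlapped (limma, adjusted p = 0.999). Psmb10, an immunoproteasome subunit, was at 57.3 ± 34.9 FPKM in Con and 49.0 ± 13.2 in DRB (limma, adjusted p = 0.941). Several other targets were near 0 in both groups. Gbp2 was at most 0.04 FPKM, Iigp1 and Nos2 at most 0.03, and Cd274 at most 0.01 in any library, and Ido1 was listed at 0 in all 6. The chemokine gene Cxcl10 had 0.61, 2.68 and 0.19 FPKM in Con and 0.23, 0.05 and 0.07 in DRB, and Cxcl9 had 0.45, 0.59 and 0.21 in Con and 2.48, 1.88 and 0.37 in DRB, and neither was tested. Among the other targets at low levels, Cxcl11 reached 4.67 FPKM, Irgm1 2.20, Igtp 1.54 and Gbp5 1.29 in their highest libraries.

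Of 25 targets of type I interferons 7 were tested and 0 called, with 1 at an unadjusted p under 0.05 and a median log2 difference of -0.72. Ifitm2, a membrane protein that restricts virus entry, was at 147.3, 217.32 and 148.23 FPKM in Con and at 12.81, 70.95 and 59.41 in DRB. Every DRB library was below every Con library, and the log2 difference of -2.11 ± 0.53 (SE) missed the threshold (limma, adjusted p = 0.0631). It passed at a minimum of 5 FPKM (adjusted p = 0.0431) and without DRB replicate 2 (adjusted p = 0.0441). Ifitm1, its neighbour in the same family, was at 27.7 ± 14.8 FPKM in Con and 25.2 ± 7.94 in DRB (limma, adjusted p = 0.998).

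**Figure D3:**
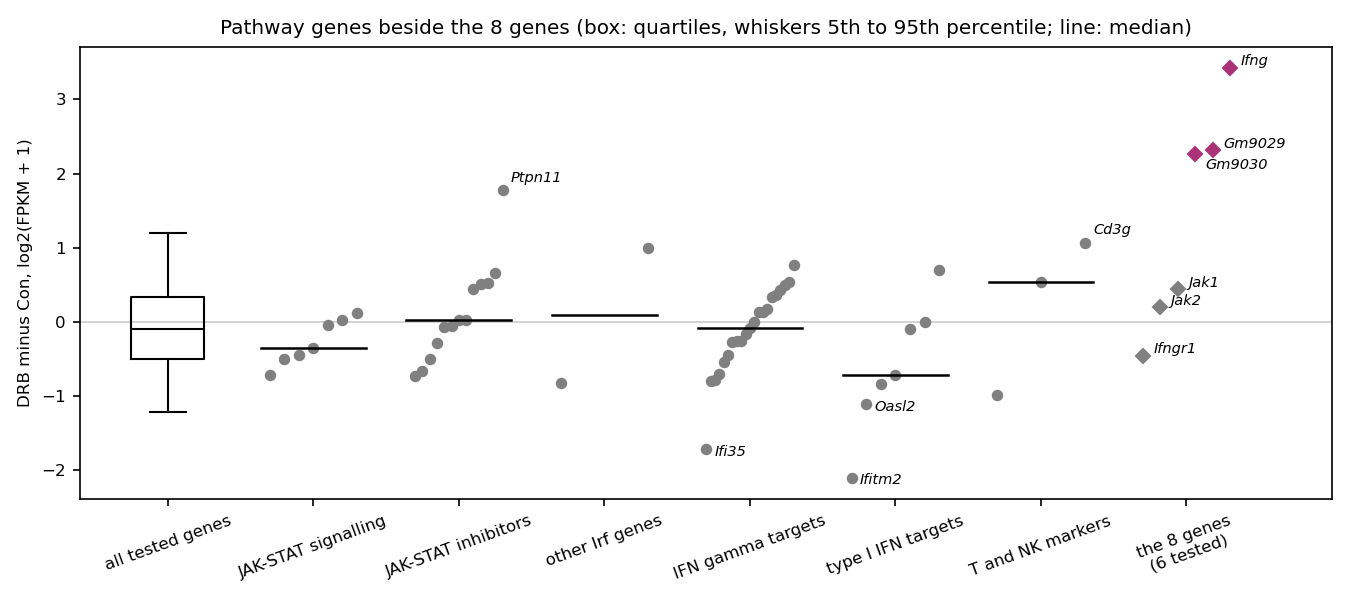
Log2 difference of DRB minus Con on the log2(FPKM + 1) scale. Circles are tested genes of 6 lists with a line at the list's median, the box gives the quartiles and the 5th to 95th percentile of all 11893 genes tested, and diamonds are the 6 tested members, purple where called. The list medians lie between -0.72 for the type I interferon targets and 0.54 for the T and NK cell markers, and 0 of the circles are called genes.

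The other interferon genes were mostly silent in these files. Of 25 genes for other interferons and cytokines of the interleukin 10 family, 19 were listed at 0 in all 6 libraries and none was tested. Ifnk, a type I interferon of keratinocytes, was the one above 1 FPKM, at 1.84 in DRB replicate 2 and 0.61 in DRB replicate 3. Il22, the neighbour of Ifng in the cytokine cluster, had 0.09 FPKM in Con replicate 1 and 0 elsewhere, and its copy Iltifb was listed at 0 in all 6 libraries. Among 10 other receptors of the class II cytokine family, Ifnar1, a chain of the type I interferon receptor, was the one tested, at 1.11, 1.61 and 2.18 FPKM in Con and 0.49, 1.72 and 0.61 in DRB (limma, adjusted p = 0.602).

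Markers of the cells that normally make interferon gamma were read beside it. Of 19 T and NK cell markers 5 reached 1 FPKM in some library, 3 were tested and limma called 0, with 2 at an unadjusted p under 0.05. Their summed level was 14.65 to 16.67 FPKM in Con and 12.19 to 35.06 in DRB. Lck, a kinase of the T-cell receptor, made up most of it, at 9.46, 10.21 and 8.09 FPKM in Con and 26.16, 14.91 and 6.54 in DRB (limma, adjusted p = 0.603). Cd3g, a chain of the same receptor, had 0.82, 1.28 and 0.52 FPKM in Con and 4.22, 2.95 and 1.82 in DRB (limma, adjusted p = 0.206), and Zap70 had 3.11 ± 0.377 in Con and 1.18 ± 0.779 in DRB (limma, adjusted p = 0.255). Over all 19 markers, tested or not, every DRB library was above every Con library in 4 and below in 1, Zap70. Among the 3 tested markers 1 was above and 1 below, where 9.85% of all genes tested were above and 13.9% below. No such share was taken over untested genes, so nothing is read from the count over all 19. The 4 were Cd3g, Cd3d, at 0.27, 0.29 and 0.46 FPKM in Con and 0.59, 1.24 and 0.59 in DRB, Ptprc, at most 0.21 FPKM, and Gzmb, at most 0.09. Cd3e, another chain of the receptor, was at most 0.03 FPKM in any library. Of the 11 activators of Ifng in lymphocytes Il18 was the one tested, at 5.25 ± 2.46 FPKM in Con and 2.97 ± 2.64 in DRB (limma, adjusted p = 0.488). Il12a, a subunit of interleukin 12, was listed at 0 in Con and stood at 0.09, 1.44 and 1.56 FPKM in DRB, and Il18r1, a chain of the interleukin 18 receptor, was listed at 0 in Con and at 0.03, 0.15 and 0.02 in DRB. These 2 of the 11 were the activators with every DRB library above every Con library, and 0 had every one below. Neither was tested, and with no share over untested genes beside it nothing is read from this count. Tbx21, the T-bet gene, was at most 0.62 FPKM and Eomes at most 0.01 in any library.

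The other marker lists gave no call. Of 12 blood and myeloid markers 6 were tested, with 1 at an unadjusted p under 0.05, and their summed level was 78.0 to 124 FPKM in Con and 49.3 to 92.5 in DRB, mostly the haemoglobin genes Hba-a1 and Hba-a2. Of 13 cumulus and granulosa markers 2 were tested, with 0 at an unadjusted p under 0.05 and sums of 213 to 387 FPKM in Con and 144 to 276 in DRB, mostly Gja1, a gap junction gene that embryos also express. The other tested marker of this list, Amhr2, was at 19.7 ± 3.18 FPKM in Con and 23.6 ± 4.26 in DRB (limma, adjusted p = 0.747). Of 9 sperm markers 2, Ldhc and Odf2, were tested, with 0 at an unadjusted p under 0.05 and sums of 12.7 to 22.7 FPKM in Con and 12.5 to 24.2 in DRB. The part of any of these cells in the Ifng reads was not tested.

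The neighbourhood of Ifng was searched for other changes. Within 1 Mb on either side, 55 genes are annotated beside the members, 30 of them at 0 in all libraries and 17 at 1 FPKM or more in some library. Of 13 that were tested, limma called 1 higher and 1 lower, where 2.48% of all genes tested were called, and 7 were at an unadjusted p under 0.05, where 18.1% of all were. These 7 were the called genes, Slc35e3 and 4930477N07Rik, and the Cdc5l copies Gm32802, Gm9040, Gm9044, Gm9045 and Gm9049. Since the copies share reads, these are not 7 separate measurements. Of the 13, 5 are Cdc5l copies that share reads with Gm9029 and Gm9030, all with a positive log2 difference and a median of 1.65. The other 8 were positive in 5 and negative in 3, with a median of 0.09 beside -0.09 over all genes tested. Over all 13 the median was 0.84, and with the copies of identical values counted once it was 0.33, so the higher median comes with the copies. Every DRB library was above every Con library in 3 of the 5 copies, 2 of them with identical values, and in 1 of the other 8. Every one was below in 1 of the other 8, where 9.85% of all genes tested were above and 13.9% below. Of these, the copy Gm32802 entered the fit only through the DRB libraries and the gene below, 4930477N07Rik, only through the Con libraries. Both therefore had to differ. Gm9040 and Gm9044 reached 1 FPKM in Con replicate 1 alone among the Con libraries, and Gm9045 and Gm9049 in Con replicate 2 alone. All of these copies reached it in every DRB library, so they too passed the filter mainly through DRB, which favours a positive difference.

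Slc35e3, a gene of the nucleotide-sugar transporter family that ends 695 kb before Ifng, rose in DRB. It stood at 4.24, 4.10 and 2.28 FPKM in Con and at 41.53, 21.43 and 17.83 in DRB, so the groups did not overlap. The means were 3.54 ± 1.09 and 26.9 ± 12.8 FPKM (SD, n = 3), with a log2 difference of 2.56 ± 0.42 (SE; limma, adjusted p = 0.0145), and the call was lost without DRB replicate 1 (adjusted p = 0.0575). The long noncoding RNA gene 4930477N07Rik, 874 kb past Ifng, stood at 2.29, 3.51 and 2.30 FPKM in Con and was listed at 0 in all 3 DRB libraries. It entered the fit only through the Con libraries, so that it had to differ, and it is the call in the lower direction (limma, adjusted p = 0.0250). That call was lost without any 1 of the DRB libraries, at adjusted p = 0.0550 to 0.0732, with a pseudocount of 0.1 (adjusted p = 0.0675) and with the replicate number as a block (adjusted p = 0.0615). Without a Con library the gene had too few values of 1 FPKM to be tested.

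The genes between and beyond these did not pass the test. Mdm2, the ubiquitin ligase of p53, was at 39.45, 40.96 and 45.26 FPKM in Con and at 64.3, 53.55 and 42.57 in DRB (limma, adjusted p = 0.604). Nup107, a nuclear pore gene, was at 47.9 ± 0.427 FPKM in Con and 42.6 ± 10.5 in DRB (limma, adjusted p = 0.794), and Rap1b, a small GTPase gene, at 80.6 ± 18.6 and 84.1 ± 9.06 (limma, adjusted p = 0.917). Cand1, an exchange factor of cullin ligases, was at 139 ± 15.6 FPKM in Con and 129 ± 32.0 in DRB (limma, adjusted p = 0.853). Mdm1, which lies between Slc35e3 and the Cdc5l copies, had 0.70 ± 0.643 and 2.43 ± 2.14 FPKM (limma, adjusted p = 0.457), and Cpm, a carboxypeptidase gene, had 4.55 ± 2.37 and 4.79 ± 2.06 (limma, adjusted p = 0.939). Gm32802, which entered the fit only through the DRB libraries, had a log2 difference of 0.86 ± 0.37 (SE; limma, adjusted p = 0.244). Gm38403 and Grip1os3 each passed 1 FPKM in DRB replicate 2 alone and were not tested.

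**Figure D4:**
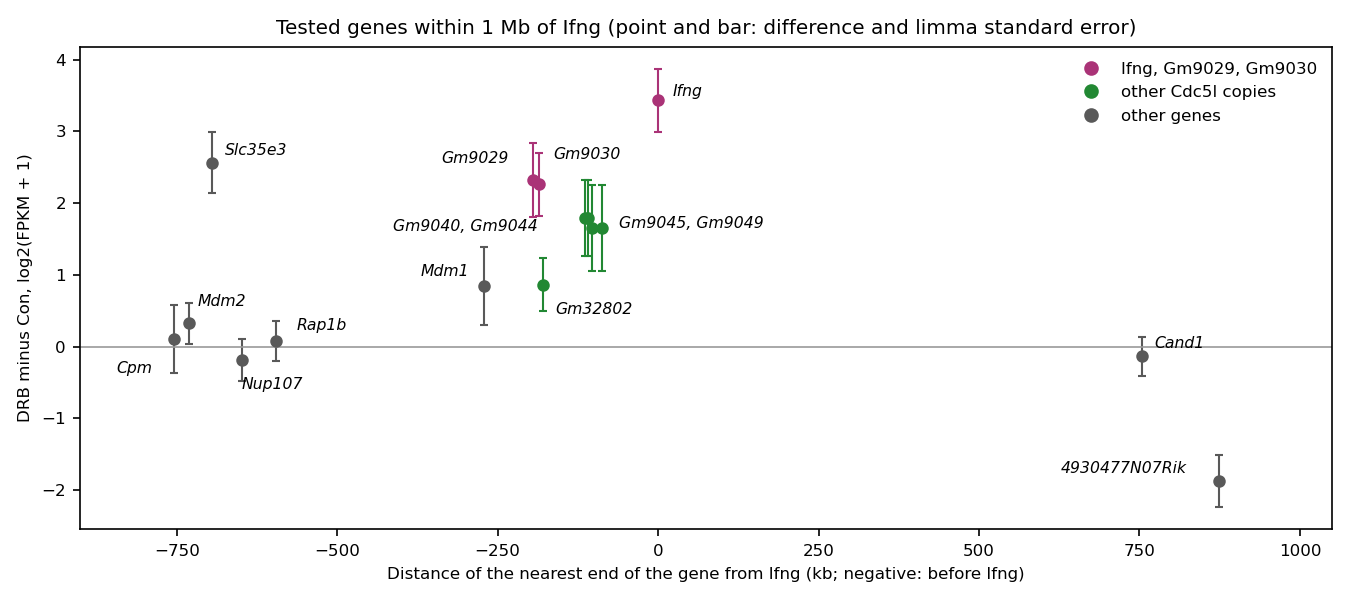
Log2 difference of DRB minus Con on the log2(FPKM + 1) scale, with limma's standard error as the bar, for the tested genes within 1 Mb of Ifng against their distance from it in kb. Purple points are Ifng, Gm9029 and Gm9030, green points the other Cdc5l copies and grey points all other genes. Slc35e3 at 2.56 lies before Ifng, 4930477N07Rik at -1.87 lies after it, and Mdm2, Nup107, Rap1b, Cpm and Cand1 lie within 0.33 of 0.

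Ifng, Gm9029 and Gm9030 were compared in pattern over the 6 libraries with the genes tested whose mean was at least 5 FPKM, 7117 in all, as Pearson's r of log2(FPKM + 1). All these libraries share the group difference, so r is a description and has no p. The genes most like Ifng were Snord104 (r = 0.999), Gm26479 (0.997), Gm12238 (0.996), Gm4240 (0.993) and Gm24920 (0.992). Snord104 and Gm24920 are annotated as snoRNA genes, Gm26479 as an snRNA gene and Gm12238 as a sense intronic gene. Like Ifng, these were listed at 0 in all Con libraries. They entered the comparison only through the DRB libraries, so that they had to differ between the groups as Ifng did. Gm9030 was most like Gm10553 (0.996), Slc35e3 (0.994), Gm13691 (0.993), Elmod2 (0.993) and Akap9 (0.991). Of these, Slc35e3 is on the same chromosome, with Nup107, Rap1b and Mdm1 among the genes between it and Gm9030.

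Gm9029 followed other genes, with mt-Co2 (0.988), a cytochrome oxidase gene of the mitochondrial genome, Gm45598 (0.987), Gm28661 (0.984), Ncbp2 (0.983) and Cstdc5 (0.978) at the top. Among the members, r was 0.89 between Ifng and each of the pseudogenes and 0.71 between Gm9029 and Gm9030. The division of fragments between Gm9029 and Gm9030 is uncertain, and Gm9029 took 8.68%, 27.4% and 52.4% of their sum in DRB replicates 1, 2 and 3. The pattern of either copy alone, and the genes found most like it, therefore depend on that division. For Ifng, r was 0.43 with Jak1, 0.20 with Jak2 and -0.33 with its receptor gene Ifngr1.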

How the data were processed

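RNA was measured by Smart-Seq2 in 3 Con and 3 DRB libraries of mouse 4-cell embryos. The deposited values are FPKM for each of 55335 genes, per the file headers. The submitters' processing notes name cutadapt 1.16, STAR and mm10, while the program that computed FPKM, its gene annotation and its treatment of reads from near-identical copies are not stated there. Because FPKM is relative to the library's total, it moves with the share taken by abundant genes.

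GENCODE M21 (GRCm38) holds 55154 of the IDs and lacks 181. Depth was estimated from the step of 1 fragment in low FPKM values of genes, of which 72.6% to 80.9% lay within 0.15 of a whole number in each library. The test used limma 3.58.1 (R 4.3.3) for genes that reached 1 FPKM in 3 or more libraries, on the log2(FPKM + 1) scale (mean-variance trend, two-sided, all 6 libraries, group as the single term, Benjamini-Hochberg over 11893 genes, threshold 0.05). Count tests were not run, because the files hold FPKM. The fit was tested on simulated data. Tables were made with Python 3.11.15, pandas 2.3.3 and numpy 2.4.6 and figures with matplotlib 3.10.9.

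The members and the 13 gene lists were chosen with earlier results of these data known. Named were the 8 members, from each list up to 2 called genes per direction or, with none called, the 2 tested genes of highest level, the genes within 1 Mb of Ifng at 1 FPKM or more in some library, and the 5 genes most like Ifng, Gm9029 or Gm9030. Socs1, Cd3d, Cd3e, Cd3g, Gzmb, Ptprc, Il12a, Il18r1, Tbx21, Eomes, Ifnk, Ifi35, Psme2, Dtx3l, Cxcl11, Irgm1, Igtp, Gbp5, Gbp2, Iigp1, Nos2, Cd274, Ido1, Cxcl9, Cxcl10, Il22, Iltifb, Ifngas1, Gm49751, Gm32717 and Cdc5l were named after their values were seen. Alternatives were a pseudocount of 0.1, no filter, a minimum of 5 FPKM, median-of-ratios and upper-quartile scaling, leaving out mitochondrial genes, the replicate number as a block, and leaving out each library. Values of some listed genes are not reported here.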

Additional observations from a re-analysis of the deposited data

How the results depend on the processing

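Of 295 genes called over the transcriptome (182 higher, 113 lower), a pseudocount of 0.1 left 164 (113 higher, 51 lower), no filter 6 (6 higher, 0 lower), and leaving out mitochondrial genes 74 lower. Without 1 library 47 to 220 genes were called, 34 to 139 higher and 13 to 81 lower. The 2 calls around Ifng became 1 with a pseudocount of 0.1 or a minimum of 5 FPKM and 0 with no filter, and 0 to 3 without 1 library. The 3 calls among the members became 0 with no filter and 0 to 2 without 1 library, and the 1 call among the lists became 0 with no filter, 3 at a minimum of 5 FPKM and 1 to 2 without 1 library. Among the fits without 1 library, the lowest counts over the transcriptome and around Ifng came without DRB replicate 1. Of the members, Ifng was called without each Con library and, like Gm9029, could not be tested without a DRB library, since it then reached 1 FPKM in too few libraries. Gm9030 was called without Con replicate 1 and without DRB replicate 3, and in 2 of 6 such fits in all, and Gm9029 in 0 of 3. Gm9029 also lost its call with a pseudocount of 0.1 (limma, adjusted p = 0.0538), with no filter (0.295), with the replicate number as a block (0.0614) and with median-of-ratios (0.0503) and upper-quartile scaling (0.0512), and it was not tested at a minimum of 5 FPKM. The share of calls that were higher was 61.7%, against 72.2% with median-of-ratios scaling, 71.1% with upper-quartile scaling and 72.1% without mitochondrial genes, which moved the median log2 difference of all genes from -0.09 to 0.02. The cause of these shifts was not tested. With no filter the genes tested rose from 11893 to 27554, and the mean-variance trend was fitted anew over all of them. Of 490 values of single genes under these settings, 23 lost the threshold, 5 passed it, and 7 of genes not called, all with a pseudocount of 0.1, moved by more than 1 SD of the replicates. The sign turned in 21, all of genes not called, 9 genes in all with Jak2 among them.

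The replicate numbers are shared between the groups, but no source says what they mark, and deviations of same-numbered libraries correlated at -0.05, 0.05 and -0.05, so the libraries were not treated as paired. With the replicate number as a block, 171 genes were called, 44 of them lower and 74.3% higher, with 1 call around Ifng and 2 among the members.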
